A study of Mus musculus with 12 samples.

Results

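The enzymes that write methyl groups on H3K4 and H3K27 were followed as transcripts in the mouse nucleus accumbens, the ventral striatal region of the reward circuit, on 12 Illumina bead arrays. The group holds 10 genes, namely the H3K4 methyltransferases Kmt2a, Kmt2c, Kmt2d, Setd1a, Setd1b and Setd7 and the core of Polycomb repressive complex 2 (PRC2), Ezh1, Ezh2, Eed and Suz12. All probes that the array's gene table assigns to these symbols were taken, 21 in all, and 14 of them, covering all 10 genes, had a detection p under 0.05 on at least 3 arrays. The whole series holds 25478 such probes out of 45281, and those with 1 gene symbol cover 12732 genes.

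All mice were C57BL/6J, 8 to 10 weeks old, had 15 daily intraperitoneal injections and were killed 1 h after the last one. Withdrawal mice received 7 injections of cocaine at 20 mg/kg, then 7 of saline and then 1 cocaine challenge. Repeated mice received 7 injections of saline and then 8 of cocaine at the same dose. Acute mice received 14 injections of saline and 1 of cocaine. Saline mice received saline alone. Each group had 3 arrays and each array carried RNA pooled from punches of 4 mice, so the arrays are the replicates and single mice cannot be told apart. The design sets a single dose, a dose after daily cocaine, and a dose after a cocaine-free week beside saline. A tissue punch mixes cell types, and fewer cells of a type and less RNA per cell cannot be told apart in such samples.

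H3K4 methylation marks promoters and enhancers of active genes. It is written by the SET1 and MLL enzymes, which work inside COMPASS complexes: Setd1a and Setd1b supply H3K4 trimethylation at promoters, Kmt2a acts at a smaller set of targets, and Kmt2c and Kmt2d put monomethylation on enhancers. Setd7 is a separate monomethyltransferase that also modifies many proteins other than histones. H3K27 methylation is the opposing mark of Polycomb silencing, written by PRC2 with Ezh2 or its relative Ezh1 as the catalytic subunit, Suz12 as the scaffold and Eed as the subunit that binds the mark and stimulates the enzyme. In mouse striatal medium spiny neurons, loss of both Ezh1 and Ezh2 releases silenced genes and leads to degeneration of the cells.

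Between 22189 and 23803 probes were detected per array. Of the 10 fixed markers of medium spiny neurons, the main cell type of this region, 8 were measured and all 8 were detected on all 12 arrays, which fits the tissue label. Of the dividing-cell markers Mki67, Top2a and Ccnb1 only Top2a passed the detection filter, and it was not detected on all 12 arrays. The 4 arrays numbered replicate 1 stood somewhat apart from numbers 2 and 3, with deviations from the group means that correlated between groups at 0.39 to 0.47. Same-number differences are therefore given for the genes on which the results turn.

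No transcript of the group passed the test across all probes. With limma and Benjamini-Hochberg adjustment over the 25478 probes, 0 of the 14 probes passed 0.05 in any of the 6 pairwise comparisons or in the F test over the 4 groups. The background was 0% of all probes in acute, repeated and withdrawal against saline, 0.00392% (1 probe) in repeated against acute, and 0% in the other 2 comparisons and the F test. Without adjustment, 2 of the 14 probes, those of Kmt2c and Setd1b, had an F-test p under 0.05, against 6.15% of all probes. The 14 probes were split about evenly against saline, with a median log2 difference of 0.03 in withdrawal (8 higher, 6 lower), 0.04 in repeated (7 and 7) and 0 in acute (7 and 7), beside medians of 0.0042, 0.0024 and -0.00031 over all probes. Between cocaine groups they were less even, with 11 higher and 3 lower in withdrawal minus acute (median 0.06) and in repeated minus acute (median 0.07), and 5 higher and 9 lower in withdrawal minus repeated (median -0.03). Over all probes, 51.0%, 50.6% and 51.3% were higher in these comparisons, with medians of 0.0047, 0.0027 and 0.0043. Withdrawal and repeated share the acute arrays there.

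Counts by weaker rules are read against the shares of all probes that pass them. At an unadjusted p under 0.05, 2 of the 14 probes (Kmt2c and Setd1b) were higher in withdrawal against saline and 0 were lower, where 4.20% and 3.61% of all probes were. In repeated against saline the count was 1 higher (Setd1b) and 0 lower, against 4.31% and 4.58%. In acute against saline it was 0 and 0, against 2.23% and 2.22%. In withdrawal against acute it was 1 higher (Kmt2c) and 0 lower, against 3.11% and 2.54%, and in withdrawal against repeated 1 higher (Kmt2c) and 0 lower, against 1.24% and 0.871%. In repeated against acute it was 0 and 0, against 2.74% and 2.68%.

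The series text counts a gene at 1.3-fold or more with an unadjusted p under 0.05. By that rule, 1 probe (Kmt2c) was higher and 0 lower in withdrawal against saline, where 2.48% and 1.46% of all probes were, and likewise in withdrawal against acute, where 1.94% and 1.45% were. The other comparisons had 0 of 14 probes in either direction. The shares of all probes higher and lower there were 2.49% and 2.10% in repeated against saline, 1.44% and 1.33% in acute against saline, 1.78% and 1.40% in repeated against acute, and 0.891% and 0.659% in withdrawal against repeated. Among the 12 probes detected on all arrays, the plot of differences from saline shows that the 95% intervals of all but 2 probes included 0 in every group.

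**Figure D1:**
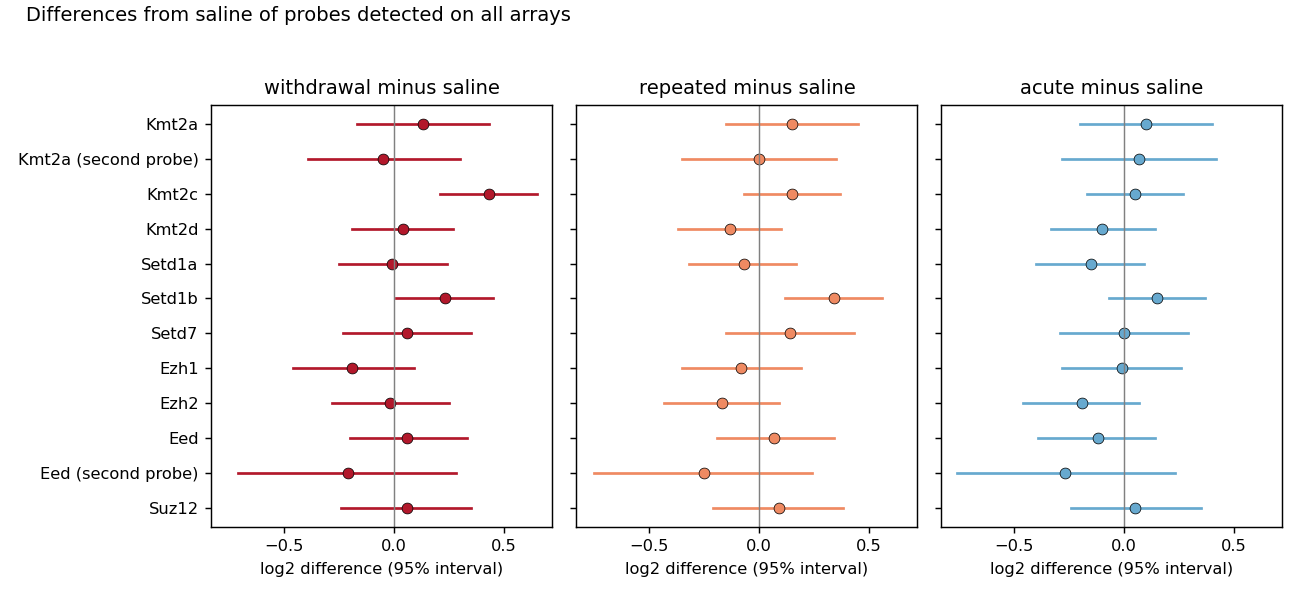
Log2 differences from saline (x axis) for the 12 probes detected on all arrays (y axis), in withdrawal, repeated and acute mice; points are limma estimates from 3 arrays per group and bars are unadjusted 95% intervals. Kmt2c in withdrawal (0.43) and Setd1b in repeated (0.34) lie farthest to the right.

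Kmt2c, the enhancer H3K4 monomethyltransferase also known as MLL3, was the member whose levels set one group apart. On its bright probe (ILMN_2700430), log2 intensities were 10.36, 10.43 and 10.23 in withdrawal mice. They were 10.08, 9.97 and 10.13 in repeated mice, 9.95, 9.93 and 9.99 in acute mice, and 10.04, 9.76 and 9.92 in saline mice. Every withdrawal array was above every array of the other 3 groups, and those 3 groups overlapped each other. Of all probes, 7.16%, 5.08% and 3.96% were wholly higher in withdrawal than in saline, acute and repeated mice, each comparison taken singly. The share of all probes above all 3 groups at once was not computed, so no background is given for that pattern.

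Withdrawal minus saline was 0.43 ± 0.10 (SE) for Kmt2c, or 1.35-fold, with an unadjusted 95% interval from 0.21 to 0.65. Limma gave an unadjusted p of 0.00127 and an adjusted p of 0.538. Withdrawal minus acute was 0.38 ± 0.10, or 1.30-fold (limma adjusted p = 0.848), and withdrawal minus repeated was 0.28 ± 0.10, or 1.21-fold (limma adjusted p = 1). Repeated minus saline was 0.15 ± 0.10 and acute minus saline was 0.05 ± 0.10. The 3 withdrawal arrays enter all 3 comparisons, which are therefore not separate observations.

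The direction of Kmt2c was the same at each replicate number. Withdrawal minus saline was 0.32, 0.67 and 0.31 at numbers 1, 2 and 3, and withdrawal minus acute was 0.40, 0.50 and 0.24. With 1 array left out, withdrawal minus saline ran from 0.36 to 0.50, and the unadjusted p of withdrawal against repeated reached 0.0632 without repeated replicate 2. By the 1.3-fold rule of the series text, the count of 1 in withdrawal against saline became 0 without saline replicate 2. The count of 1 in withdrawal against acute became 0 without withdrawal replicate 1 or 2, without acute replicate 1 or 2, and with unsubtracted intensities.

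Other Kmt2c probes could not bear on this. The 3 that failed the detection filter were detected on 0, 1 and 2 arrays, and all 3 of these detections were on withdrawal arrays. The detected readings were low, at 19.1, 19.5 and 13.2 background-subtracted units. Readings of these probes that were not detected reached 14.4, on repeated replicate 2. A dim probe designed on a cDNA clone record (ILMN_1259742) was detected on the 4 arrays numbered 1 and on no other. Its background-subtracted intensity was 17, 18.9, 15.8 and 21.6 on replicate 1 of the withdrawal, repeated, acute and saline groups, and between -12.6 and 8.06 on the 8 arrays numbered 2 and 3. Its fitted differences from saline, -0.11, -0.06 and -0.15 ± 0.37 in withdrawal, repeated and acute mice, rest on that 1 array per group. The signal of that probe went with the replicate number and not with the treatment, as the plot of the dim probes shows.

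**Figure D2:**
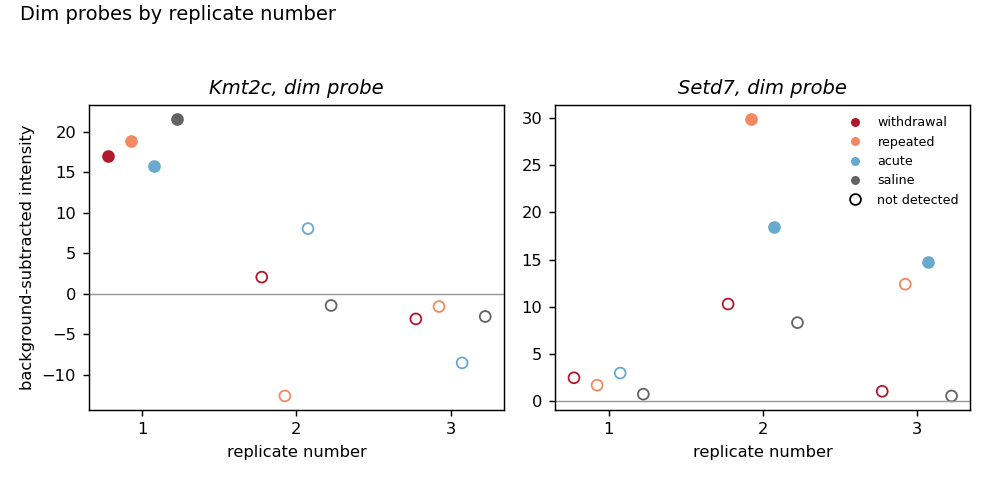
Background-subtracted intensity (y axis) of the dim Kmt2c and Setd7 probes by replicate number (x axis), coloured by group, 1 point per array; filled points were detected and open points were not. The Kmt2c probe was detected on the 4 arrays numbered 1, at 15.8 to 21.6, and the Setd7 probe on 3 arrays, at 14.7 to 29.9.

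Promoter sequence is shown for Kmt2c because it is the member with the most separate pattern. RefSeq windows (GRCm38.p6) of 250 bases before to 50 after the start were at hand for 9 of the 10 genes, Setd1b being the one without. Kmt2c had the most CpG dinucleotides of the 9, with 56 in 300 bases, against 17 to 41 in the others and a median of 7 over 32851 windows. All 9 had at least 17, a number reached by 31.4% of all windows. The bases before the start of Kmt2c (chr5:25498784-25499033, minus strand) run 5′ to 3′ as follows, with each CpG in capitals.
Kmt2c: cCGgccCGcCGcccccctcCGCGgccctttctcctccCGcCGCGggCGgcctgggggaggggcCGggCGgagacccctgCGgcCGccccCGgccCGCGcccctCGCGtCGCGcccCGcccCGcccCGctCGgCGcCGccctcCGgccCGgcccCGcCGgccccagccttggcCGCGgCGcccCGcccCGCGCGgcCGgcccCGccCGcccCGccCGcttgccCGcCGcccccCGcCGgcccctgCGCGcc
The windows were searched for motifs of factors induced or activated by neuronal activity. On either strand, the EGR motif GCGNGGGCG was found in 2 of 9 windows (Kmt2c and Kmt2d, 1 match each) against 5.55% of all windows, the CRE half-site TGACG in 1 (Suz12) against 20.8%, and the AP-1 motif TGANTCA in 0 against 7.81%. These are matches of letters in a short window, and no binding was measured. The EGR motif itself contains CpG, and the 9 windows were rich in CpG. The shares over all windows are not from windows matched for CpG.

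Setd1b, which adds H3K4 trimethylation at promoters, was higher in repeated than in saline mice. Its probe (ILMN_1258086) read 10.75, 10.83 and 10.76 on the repeated arrays, 10.76, 10.57 and 10.70 on the withdrawal arrays, 10.48, 10.59 and 10.72 on the acute arrays, and 10.35, 10.41 and 10.57 on the saline arrays. The repeated arrays lay above all acute and saline arrays, while withdrawal overlapped saline at a single value of 10.57.

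Repeated minus saline was 0.34 ± 0.10 (SE) for Setd1b, or 1.27-fold, with an interval from 0.12 to 0.56 (limma adjusted p = 0.433, unadjusted p = 0.00634). Withdrawal minus saline was 0.23 ± 0.10 (limma adjusted p = 0.63, unadjusted p = 0.0407) and acute minus saline was 0.15 ± 0.10. Repeated minus acute was 0.19 ± 0.10, with an interval from -0.03 to 0.41. All 9 same-number differences from saline were above 0, at 0.41, 0.42 and 0.19 in repeated, 0.41, 0.15 and 0.13 in withdrawal, and 0.13, 0.18 and 0.15 in acute mice. The repeated difference ran from 0.29 to 0.40 with 1 array left out. The unadjusted p of withdrawal against saline reached 0.133 without saline replicate 1. The same-number differences share their saline arrays and are not separate observations.

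**Figure D3:**
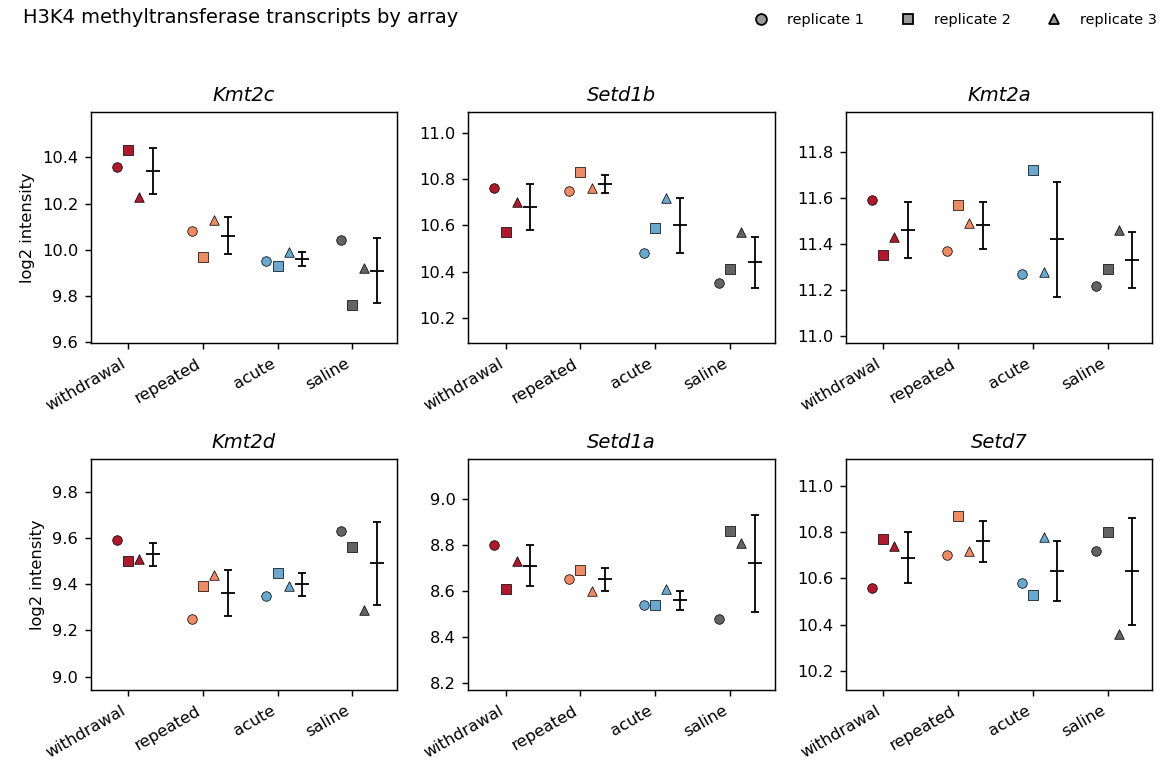
Log2 intensity (y axis) of the brightest probe of each H3K4 methyltransferase by group (x axis); points are arrays, shaped by replicate number, and bars are the mean ± SD of 3 arrays. Each panel spans 1 log2 unit, and Kmt2c is the panel in which all 3 withdrawal arrays (10.23 to 10.43) stand above all others.

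Setd1a, the paralogue of Setd1b, did not follow it. Setd1a averaged 8.71 ± 0.09 in withdrawal, 8.65 ± 0.05 in repeated, 8.56 ± 0.04 in acute and 8.72 ± 0.21 in saline mice (SD, n = 3). Its differences from saline were -0.01, -0.07 and -0.15 ± 0.11 (SE), and the saline arrays spread from 8.48 to 8.86, wider than any cocaine group. The lowest withdrawal and the highest acute array of Setd1a both rounded to 8.61, the withdrawal one being the higher before rounding, so these groups did not overlap, with a difference of 0.15 ± 0.11 (limma adjusted p = 0.854).

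Kmt2d, the relative of Kmt2c at enhancers, had 9.59, 9.50 and 9.51 in withdrawal mice, above 9.25, 9.39 and 9.44 in repeated mice and above 9.35, 9.45 and 9.39 in acute mice. The saline arrays, at 9.63, 9.56 and 9.29, spanned all of these values but the lowest repeated one. Withdrawal minus saline was 0.04 ± 0.10 for Kmt2d, repeated minus saline -0.13 ± 0.10 and acute minus saline -0.10 ± 0.10. Withdrawal minus repeated was 0.18 ± 0.10, with an interval from -0.06 to 0.41.

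Groups that did not overlap were counted over the 14 probes. In withdrawal against acute, 3 were wholly higher (Kmt2c, Kmt2d and Setd1a), where 5.08% of all probes were, and 1 was wholly lower (Ezh1), where 4.62% were. In withdrawal against repeated, 2 were wholly higher (Kmt2c and Kmt2d) and 0 wholly lower, where 3.96% and 3.39% of all probes were. In withdrawal against saline, 1 was wholly higher (Kmt2c) and 0 wholly lower, where 7.16% and 7.14% of all probes were. In repeated against saline, 1 was wholly higher (Setd1b) and 1 wholly lower (Ezh2), where 8.10% and 8.52% of all probes were. Repeated against acute gave 1 wholly higher (Setd1b) and 0 wholly lower, where 5.20% and 5.17% of all probes were, and acute against saline gave 0 (3.47% of all probes higher and 3.87% lower).

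Kmt2a, or MLL1, had 11.59, 11.35 and 11.43 in withdrawal mice, 11.37, 11.57 and 11.49 in repeated mice, 11.27, 11.72 and 11.28 in acute mice, and 11.22, 11.29 and 11.46 in saline mice. All groups overlapped, and acute replicate 2 was the highest array. Differences of Kmt2a from saline were 0.13 in withdrawal, 0.15 in repeated and 0.10 in acute mice (SE 0.14), with intervals that reached no higher than 0.45 and no lower than -0.20. A second Kmt2a probe (ILMN_1222137) gave -0.05, 0.00 and 0.07 (SE 0.16). Acute replicate 2 was again the highest array on it, at 9.75.

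Setd7 also showed little difference. Its bright probe averaged 10.69 ± 0.11 in withdrawal, 10.76 ± 0.09 in repeated, 10.63 ± 0.13 in acute and 10.63 ± 0.23 in saline mice (SD, n = 3). Its differences from saline were 0.06, 0.14 and 0.00 ± 0.13 (SE). A dim Setd7 probe (ILMN_1258450) was detected on 1 repeated and 2 acute arrays and on 0 withdrawal and 0 saline arrays. It met the detection filter through those arrays alone, so its levels are given as a description and no p-value is printed for it. It was still fitted and counted among the 14 probes. Its differences from saline, 0.01 in withdrawal, 0.63 in repeated and 0.48 in acute mice, counted there as higher. Between cocaine groups it counted as lower in withdrawal minus acute (-0.47) and withdrawal minus repeated (-0.62), and as higher in repeated minus acute (0.15). The brightest probes of the 10 genes leave it out. Against saline, 7 of them were higher and 3 lower in withdrawal, 6 and 4 in repeated, and 5 and 5 in acute mice. Its background-subtracted intensities were 2.49, 10.3 and 1.06 in withdrawal mice, 1.71, 29.9 and 12.4 in repeated mice, 2.99, 18.5 and 14.7 in acute mice, and 0.757, 8.33 and 0.568 in saline mice. The highest reading was 1 repeated array, and replicate 1 read under 3 in every group. Another Setd7 probe, detected on 1 withdrawal and 1 acute array, failed the detection filter.

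The PRC2 core showed no group that stood apart from all others. Ezh2 had 7.85, 7.85 and 7.64 in withdrawal mice, 7.59, 7.61 and 7.68 in repeated mice, 7.82, 7.38 and 7.61 in acute mice, and 7.83, 7.84 and 7.72 in saline mice. The repeated arrays of Ezh2 lay below all saline arrays, while the acute and withdrawal arrays overlapped saline. Repeated minus saline was -0.17 ± 0.12 (SE), acute minus saline -0.19 ± 0.12 and withdrawal minus saline -0.02 ± 0.12 (limma adjusted p = 0.703, 1 and 0.983). The acute difference was -0.08 without acute replicate 2. The other 2 Ezh2 probes were detected on 0 arrays.

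Ezh1, the catalytic subunit known to prevail in cells that no longer divide, was detected on every array. It had 6.06, 6.00 and 6.09 in withdrawal mice, 6.11, 6.05 and 6.31 in repeated mice, 6.23, 6.16 and 6.29 in acute mice, and 6.48, 6.03 and 6.2 in saline mice. The withdrawal arrays of Ezh1 lay below all acute arrays but overlapped saline. Differences from saline were -0.19 in withdrawal, -0.08 in repeated and -0.01 in acute mice (SE 0.12), and the first was -0.06 without saline replicate 1. Brightness of different probes cannot be set against each other, so these values do not rank Ezh1 and Ezh2.

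The promoters of these alternative catalytic subunits are shown side by side, since PRC2 carries one or the other. Ezh1 (chr11:101226464-101226713, GRCm38.p6, minus strand) had 14 CpG and Ezh2 (chr6:47595031-47595280, minus strand) had 23 in the 250 bases before the start. The sequences run 5′ to 3′ with each CpG in capitals.
Ezh1: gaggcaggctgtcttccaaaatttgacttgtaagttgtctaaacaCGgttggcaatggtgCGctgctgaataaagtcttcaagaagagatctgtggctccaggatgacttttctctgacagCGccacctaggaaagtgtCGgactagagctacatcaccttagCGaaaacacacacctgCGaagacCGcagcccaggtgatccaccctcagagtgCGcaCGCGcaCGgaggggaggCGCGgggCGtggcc
Ezh2: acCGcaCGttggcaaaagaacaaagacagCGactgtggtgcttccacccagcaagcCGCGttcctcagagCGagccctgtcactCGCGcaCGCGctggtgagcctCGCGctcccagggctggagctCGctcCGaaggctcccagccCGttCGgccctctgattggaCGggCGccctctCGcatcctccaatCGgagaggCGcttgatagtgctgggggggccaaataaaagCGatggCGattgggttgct

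Eed had 8.24, 8.48 and 8.41 in withdrawal mice, 8.38, 8.51 and 8.26 in repeated mice, 8.10, 8.05 and 8.42 in acute mice, and 8.35, 8.29 and 8.30 in saline mice. All groups overlapped, although 2 of the 3 acute arrays lay below every array of the other groups. Differences of Eed from saline were 0.06 in withdrawal, 0.07 in repeated and -0.12 in acute mice (SE 0.12). A second, dimmer Eed probe (ILMN_1253609, designed on a cDNA clone record) gave -0.21, -0.25 and -0.27 ± 0.22, and its highest array was saline replicate 1, at 6.63. Without that array the repeated difference was -0.07 and the withdrawal difference -0.03 on the second probe, and the acute difference was -0.06 without acute replicate 2. The Eed probes disagreed in sign in withdrawal and repeated mice, and deviated to the same side of the group mean on 6 of 12 arrays.

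Suz12, the scaffold of PRC2, had 10.67, 10.92 and 10.91 in withdrawal mice, 10.82, 10.93 and 10.83 in repeated mice, 10.65, 11.01 and 10.82 in acute mice, and 10.57, 10.75 and 10.99 in saline mice. The groups overlapped throughout. Differences from saline were 0.06, 0.09 and 0.05 ± 0.13 (SE) in withdrawal, repeated and acute mice, with intervals between -0.24 and 0.38. A further Suz12 probe, detected on 1 acute and 1 saline array, failed the detection filter.

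**Figure D4:**
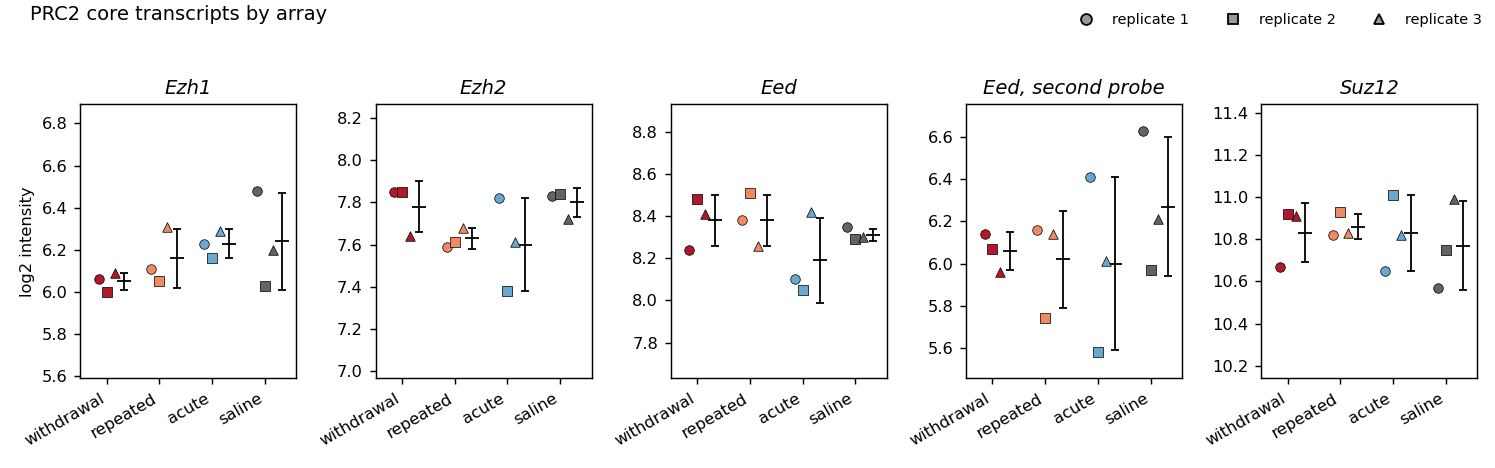
Log2 intensity (y axis) of PRC2 core probes by group (x axis), with the second Eed probe; points are arrays, shaped by replicate number, and bars are the mean ± SD of 3 arrays. Each panel spans the same range; the repeated arrays of Ezh2 (7.59 to 7.68) lie below its saline arrays (7.72 to 7.84), and the other panels overlap with saline in every group.

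Within groups the members did not vary as one. Over the 12 probes detected on all arrays, Pearson correlations of the deviations from the group means had a median of -0.12 across 66 pairs, and 26 were above 0. The highest was 0.73 between Kmt2c and Ezh1 and the lowest -0.74 between Suz12 and the second Eed probe. Setd1a and Setd1b stood at 0.66, the Kmt2a probes at 0.62 and the Eed probes at -0.05. With the replicate number also removed, these values were 0.70 for Kmt2c and Ezh1, -0.42 for Suz12 and the second Eed probe, 0.67 for Setd1a and Setd1b, 0.87 for the Kmt2a probes and 0.29 for the Eed probes, whose sign thus turned. The lowest and highest of the 66 were then -0.91, between Setd1a and Ezh1, and 0.87. Each rests on the same 12 arrays and their shared normalization, and they are given as a description.

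**Figure D5:**
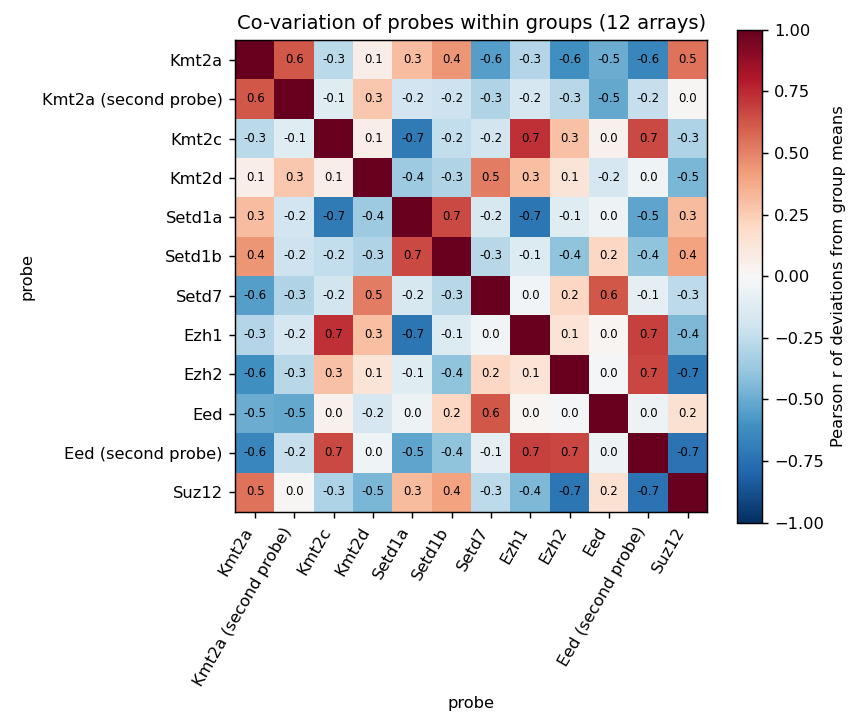
Pearson correlations, over 12 arrays, of deviations from the group means between the 12 probes detected on all arrays (both axes); red is positive and blue negative. Signs are mixed, from -0.74 to 0.73, with no block that takes in all H3K4 or all PRC2 genes.

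The partners of these enzymes were read from lists of the same complexes. Of the COMPASS and MLL partners, 14 of 15 were measured and 0 passed limma's adjusted test in any comparison. In withdrawal against saline 7 were higher and 7 lower (median 0.00), in repeated against saline 8 and 6 (median 0.02), and in acute against saline 7 and 7 (median 0.00). Bod1l, whose human protein binds SETD1A, had the smallest p of the list in all 3, at -0.38 in withdrawal, -0.47 in repeated and -0.37 in acute mice (SE 0.13, limma adjusted p = 0.623, 0.423 and 1). Its saline arrays lay above all arrays of each cocaine group. Of all probes, 7.14%, 8.52% and 3.87% were wholly lower than saline in withdrawal, repeated and acute mice. The comparisons share the saline arrays and are not separate observations.

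Of the PRC2 partners 9 of 10 were measured and 0 passed, with medians of 0.02, 0.07 and 0.15 in withdrawal, repeated and acute mice against saline. Phf19, a Polycomb-like accessory subunit that binds H3K36 methylation, was at 1.01 ± 0.23 in repeated and 0.59 ± 0.23 in withdrawal mice against saline (limma adjusted p = 0.393 and 0.626), on a dim probe with a mean log2 intensity of 3.89 in saline mice, near the floor of the scale. Of other methyltransferases named for H3K4, 5 of 7 were measured and 0 passed, Smyd1 being at -0.53 ± 0.16 in repeated against saline (limma adjusted p = 0.454). The Smyd1 probe was also dim, with a mean log2 intensity of 4.25 in repeated and 4.78 in saline mice. Of the subunits of PRC1, whose Cbx proteins bind trimethylated H3K27, 11 of 12 were measured and 0 passed. Bmi1, a core component of PRC1, was at 0.31 in withdrawal, 0.24 in repeated and 0.29 in acute mice (SE 0.10), with every array of each cocaine group above the saline arrays (limma adjusted p = 0.612, 0.545 and 1). Of all probes, 7.16%, 8.10% and 3.47% were wholly higher than saline in these groups. The comparisons share the saline arrays and are not separate observations.

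Microglia markers were mostly lower in the cocaine groups. In withdrawal against saline 6 of 7 were lower, with a median of -0.26, and the summed marker intensity was 2400 to 2620 in withdrawal and 2630 to 2760 in saline mice. In repeated against saline 6 of 7 were lower too (median -0.17, sum 2270 to 2660 in repeated mice), and in acute against saline 6 of 7 (median -0.11, sum 2370 to 2780 in acute mice). The repeated and acute sums overlapped those of saline. Over all probes, 50.8%, 50.3% and 49.9% were higher in withdrawal, repeated and acute against saline. These comparisons share the saline arrays and are not separate observations. All 7 microglia markers were detected on all arrays, and 0 passed limma's adjusted test. Astrocyte markers were higher in 5 of 5 in withdrawal and repeated mice against saline (medians 0.05 and 0.07), and 0 passed. Those differences were small, from 0.00 ± 0.14 for Aldh1l1 in repeated to 0.17 ± 0.15 for Gfap in withdrawal mice. In acute against saline 3 astrocyte markers were higher and 2 lower (median 0.05). The measured cortical neuron markers, Slc17a7 and Tbr1, were higher in 2 of 2 in withdrawal, repeated and acute mice against saline (medians 0.90, 0.73 and 1.63), but their sums overlapped widely, at 95.3 to 1380 in withdrawal, 17.7 to 975 in repeated, 303 to 1030 in acute and 22.6 to 1450 in saline mice. In repeated against saline, where Setd1b stood apart, the blood marker Hba-a1 was at -0.48 ± 0.20 (limma adjusted p = 0.531). The oligodendrocyte marker Cnp was at -0.29 ± 0.10 (limma adjusted p = 0.479). Each had all repeated arrays below the saline arrays, where 8.52% of all probes were wholly lower. Of the 4 oligodendrocyte markers measured, 2 were higher and 2 lower in this comparison (median -0.06). Their sums overlapped, at 32700 to 35400 in repeated and 32400 to 34200 in saline mice. The part of these markers in the Kmt2c and Setd1b values was not tested. Ttr, a choroid plexus marker, differed widely between arrays and was at -3.96 ± 1.40 in acute against saline (limma adjusted p = 1). All acute arrays of Ttr lay below the saline arrays, where 3.87% of all probes were wholly lower. Foxj1, the other measured marker of choroid plexus and ependyma, was at -0.08 ± 0.25 in that comparison.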

How the data were processed

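Expression was read on Illumina MouseWG-6 v2.0 arrays. Per the series text, the authors subtracted background and quantile normalized the intensity values in BeadStudio, with no version named. The deposited intensity tables were linear and already quantile normalized (the largest gap between arrays at equal rank was 0.725 units), and one equals the other minus a constant of 60.7. Per the file headers, the unsubtracted one also holds a detection p-value per probe and array. Differences in total signal can therefore not be examined, and precision is set by having 3 arrays per group.

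A floor of 10 was set on the background-subtracted values before log2, and probes with a detection p under 0.05 on at least 3 arrays were kept. Of the kept values of the 14 probes described, 8.93% lay at the floor. Gene names are from the platform's probe table, which names 1 gene for 34885 probes and several for 18. Limma 3.58.1 (R 4.3.3, lmFit and eBayes) was fitted to all 12 arrays with the 4 groups and no covariate, two-sided, with Benjamini-Hochberg adjustment over 25478 probes. Errors are limma standard errors unless marked SD, and intervals are unadjusted and cover 95%. The fit was tested on simulated data.

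Every probe of the 10 genes is described, each gene by its brightest kept probe with its further kept probes beside it. Array values are printed for probes with an unadjusted p under 0.05, for PRC2 genes and for Kmt2a, and also for Kmt2d and the dim probes, which were added after their values were seen. Of the partner lists, at most the 4 members with the smallest p are named. Members and lists were chosen with earlier results of these data known. The arrays are pools of separate mice, and the series text calls them independent. Replicate numbers are shared by the groups. Correlations of deviations exceeded 0.1 at every number in 3 of 6 comparisons (repeated and withdrawal against saline, repeated against acute; 0.13 to 0.47) but not in the other 3 (0.03 to 0.46), so the fit was repeated with the number as a block. Alternatives changed the floor, background, detection filter, block, arrays in the fit, moderation and probes per gene. The file headers name no slides, so a slide block was not run.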

Additional observations from a re-analysis of the deposited data

How the results depend on the processing

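The count of 0 of the 14 probes past the adjusted threshold held in all 6 comparisons and the F test under all 21 alternatives, of which 12 leave out 1 array; the fit restricted to the groups compared gave no F test. With the replicate number as a block, which leaves the estimates unchanged in this balanced design, Kmt2c ILMN_2700430 withdrawal minus saline stayed at 0.43 (limma adjusted p = 0.367). The lowest limma adjusted p of a member probe with this block was 0.347, so this pairing changed no call among the member probes. The count by the series text's rule became 0 in withdrawal minus acute with unsubtracted values. With 1 array left out it ran from 0 to 2 there and from 0 to 1 in the other comparisons except repeated minus acute, where it was 0. The cause was not tested.

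Leaving out 1 array was run for 44 differences, those of the 14 probes from saline and the other 2 of Kmt2c, and not for the other differences between cocaine groups or for the partner genes. Of these 44, 20 turned sign or reached 0. The dim Setd7 probe reached 0 in withdrawal minus saline without withdrawal replicate 2, where all its values in these groups lay at the floor. The ranges of acute minus saline were -0.05 to 0.17 for Kmt2a (second probe -0.09 to 0.23), -0.02 to 0.12 for Kmt2c (dim probe -0.37 to 0.22), -0.13 to 0.09 for Setd7, -0.11 to 0.12 for Ezh1 and -0.04 to 0.16 for Suz12. Those of repeated minus saline were -0.07 to 0.08 for the second Kmt2a probe, -0.37 to 0.31 for the dim Kmt2c probe, -0.19 to 0.00 for Setd1a, -0.18 to 0.04 for Ezh1 and -0.01 to 0.20 for Suz12. Those of withdrawal minus saline were -0.12 to 0.01 for the second Kmt2a probe, -0.37 to 0.26 for the dim Kmt2c probe, -0.06 to 0.11 for Kmt2d, -0.13 to 0.07 for Setd1a, -0.07 to 0.15 for Setd7 (dim probe 0.00 to 0.02), -0.06 to 0.05 for Ezh2 and -0.04 to 0.17 for Suz12. With a floor of 1 the dim Kmt2c probe turned to 0.85 in acute and 0.24 in withdrawal minus saline, since its values below 10 are then no longer equal. Kmt2c and Setd1b kept their sign against saline in withdrawal and repeated mice with any 1 array left out.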
